A study of Homo sapiens with 10 samples.

Results

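In the pair of libraries described here, 22RV1 cells, a human prostate cancer line, had been given either a plasmid expressing an HA-tagged protein that the labels call RBN (HA-RBN) or the matching empty vector (EV(RBN)), and chromatin was immunoprecipitated and sequenced. HA is a short epitope tag. The comparison was made between the deposited peak lists of the 2 libraries on the autosomes and chromosome X. Those lists held 242130 peaks for HA-RBN and 156155 for EV(RBN), together 398285 of the 619114 peaks in the 6 lists of the series on those chromosomes. Peaks were compared in 3 ways: by overlap of the intervals by at least 1 bp, by summits lying within 250 bp of each other, and by the number of sequenced fragments stacked at each summit, which was recovered from the deposited fold enrichment and p-value of every peak.

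The series holds 10 samples of the same cell line, 6 immunoprecipitated and 4 IgG controls, and the other 4 peak lists come from an RB fragment of residues 245-255 with its own empty vector and from siRNA against RB1 with its control siRNA. Both groups received a plasmid, and neither label mentions siRNA. No IgG library carries the name of this pair, and none was used. The labels name neither the antibody nor the part of RB that RBN stands for, and they do not say whether the plasmid cells were selected or pooled. Each group was 1 library, so no p-value between the groups is given, and all intervals cover counting error only.

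RB, the product of RB1, holds back entry into S phase by binding E2F transcription factors at the promoters of cell cycle and DNA synthesis genes, and cyclin-dependent kinases release it by phosphorylation. TRIM24 is a chromatin reader with a bromodomain and a PHD finger and is a co-activator of the androgen receptor in prostate cancer. The title of the series links RB with TRIM24, DUSP2 and mTOR signalling. DUSP2 is a phosphatase that inactivates MAP kinases, and mTOR is a kinase that drives protein synthesis and cell growth.

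With HA-RBN, the summit at the start of EZH2, the methyltransferase of Polycomb repressive complex 2, was the highest relative to the empty vector among starts called with at least 30 fragments in the 2 libraries together, with 96 fragments against 6. Of 24 DNA replication genes with paired summits at the start, 5 were also called higher, against 1.9% of all such gene starts. That 1.9% covers all heights, and the share rose to 9.38% at starts with at least 80 fragments together. Among the 5 were MCM7 and MCM3 (subunits of the replicative helicase) and PRIM1 (the primase subunit that makes RNA primers). GMNN (geminin, which blocks repeated origin licensing) and LIG1 (the ligase that joins Okazaki fragments) completed the 5. The rest of the 24 were not called. At the other extreme, under the same limit, stood TRIM37, a ubiquitin ligase that limits centrosome assembly, with 16 fragments in the deeper HA-RBN library against 19 with the empty vector. The upstream sequences of 7 starts are shown as examples, and no call was made from them. They are the 250 bases before the annotated start, from RefSeq (GRCh38.p14), written 5′ to 3′ on the strand of the gene, and capitals mark the 8-letter E2F sequences TTTCCCGC, TTTGGCGC, TTTCGCGC and TTTGCCGC on either strand. The 4 starts from EZH2 to LIG1 lie on the minus strand at chr7:148884292-148884541, chr7:100101398-100101647, chr6:52284743-52284992 and chr19:48170345-48170594, GMNN on the plus strand at chr6:24774687-24774936, TRIM37 on the minus strand at chr17:59106881-59107130 and CCDC174 on the plus strand at chr3:14651512-14651761.
EZH2: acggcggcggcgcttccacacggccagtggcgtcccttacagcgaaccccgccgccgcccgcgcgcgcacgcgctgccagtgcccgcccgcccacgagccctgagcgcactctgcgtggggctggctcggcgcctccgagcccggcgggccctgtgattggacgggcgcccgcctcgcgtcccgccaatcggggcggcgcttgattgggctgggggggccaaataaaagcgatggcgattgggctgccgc
MCM7: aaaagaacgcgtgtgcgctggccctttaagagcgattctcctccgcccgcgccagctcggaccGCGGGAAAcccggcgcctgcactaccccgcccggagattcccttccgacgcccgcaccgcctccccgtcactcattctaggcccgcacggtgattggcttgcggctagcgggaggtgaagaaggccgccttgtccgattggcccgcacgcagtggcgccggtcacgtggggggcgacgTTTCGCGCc
MCM3: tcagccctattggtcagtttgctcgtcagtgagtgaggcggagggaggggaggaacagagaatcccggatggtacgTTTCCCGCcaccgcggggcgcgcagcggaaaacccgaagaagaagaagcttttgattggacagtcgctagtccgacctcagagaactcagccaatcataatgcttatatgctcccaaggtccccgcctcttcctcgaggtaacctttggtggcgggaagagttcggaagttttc
LIG1: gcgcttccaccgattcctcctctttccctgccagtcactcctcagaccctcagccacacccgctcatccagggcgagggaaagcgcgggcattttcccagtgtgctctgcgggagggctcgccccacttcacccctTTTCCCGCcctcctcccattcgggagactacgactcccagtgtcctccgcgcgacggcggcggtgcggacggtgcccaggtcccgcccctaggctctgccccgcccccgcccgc
GMNN: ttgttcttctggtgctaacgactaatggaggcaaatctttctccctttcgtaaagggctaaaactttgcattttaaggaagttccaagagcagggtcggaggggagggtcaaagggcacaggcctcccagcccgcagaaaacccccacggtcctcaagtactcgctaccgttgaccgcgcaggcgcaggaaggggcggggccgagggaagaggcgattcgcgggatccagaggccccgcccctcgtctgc
TRIM37: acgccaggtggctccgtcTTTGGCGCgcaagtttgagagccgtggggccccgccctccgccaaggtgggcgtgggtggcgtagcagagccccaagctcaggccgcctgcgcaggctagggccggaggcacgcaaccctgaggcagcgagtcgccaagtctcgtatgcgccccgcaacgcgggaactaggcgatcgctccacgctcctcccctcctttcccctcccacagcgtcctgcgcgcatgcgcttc
CCDC174: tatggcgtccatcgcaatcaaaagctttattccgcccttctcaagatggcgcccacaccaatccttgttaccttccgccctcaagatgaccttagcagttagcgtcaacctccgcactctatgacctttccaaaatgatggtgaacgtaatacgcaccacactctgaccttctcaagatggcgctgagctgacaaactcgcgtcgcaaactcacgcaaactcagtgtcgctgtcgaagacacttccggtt
MCM7 held 2 such matches, beginning 187 and 9 bp upstream of the start, MCM3 1 at 174 bp, LIG1 1 at 114 bp and TRIM37 1 at 232 bp. EZH2, GMNN and CCDC174 held none in this window. Nor did PRIM1, HMGN2 and FBXO5, also called higher, or MIOS and SMG9, called lower, whose sequences are not shown. The HA-RBN summit lay 238 bp upstream of the EZH2 start, 56 bp upstream at MCM3, 81 bp upstream at LIG1 and 134 bp upstream at CCDC174, so these 4 were inside the sequences shown.

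The 2 lists differed in depth, which bears on every comparison below. The lowest local background of a library, in fragments per base, was used as its depth index and was 0.634 for HA-RBN and 0.367 for EV(RBN), a ratio of 1.73. The peak numbers differed by a ratio of 1.55 and the covered length by a ratio of 1.78, with 150363853 bp covered with HA-RBN and 84443953 bp with the empty vector. Most peaks were small: 86.2% of EV(RBN) peaks and 72.7% of HA-RBN peaks had under 5 fragments at the summit, and the median was 3 in both. The tallest summits held 1642 fragments with EV(RBN) and 3280 with HA-RBN. To set the libraries side by side, fragments at a summit were divided by the depth index, and the quotient is called enrichment here. The smallest listed peaks, of 2 fragments, had an enrichment of 5.46 in EV(RBN) and 3.15 in HA-RBN, so the HA-RBN list reached further down. An enrichment of at least 20 was reached by 7287 EV(RBN) summits and 11268 HA-RBN summits (ratio 1.55), and an enrichment of at least 50 by 1318 and 2756 (ratio 2.09), so the excess of HA-RBN did not vanish among tall summits.

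Of the EV(RBN) peaks, 32.6% (95% exact Clopper-Pearson interval 32.3 to 32.8) overlapped an HA-RBN peak, while the HA-RBN intervals covered 4.96% of the chromosomes. In the other direction 20.6% (20.5 to 20.8) of HA-RBN peaks overlapped an EV(RBN) peak, whose intervals covered 2.79%. By summits, 18.4% of EV(RBN) and 11.9% of HA-RBN summits had a partner within 250 bp, against 4.003% and 2.582% of the chromosomes that lay as close to a summit of the other list. Sharing rose steeply with height. Among summits with an enrichment under 10, 11.6% of EV(RBN) and 7.29% of HA-RBN summits were shared, and among those of 80 and over, 86.3% and 86.8%. Between 20 and 40, more of the EV(RBN) summits (67.6%) than of the HA-RBN summits (58.3%) had a partner. Tall binding sites of the empty vector library were thus mostly listed again with HA-RBN, and the bulk of unshared peaks in both lists was small.

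**Figure D1:**
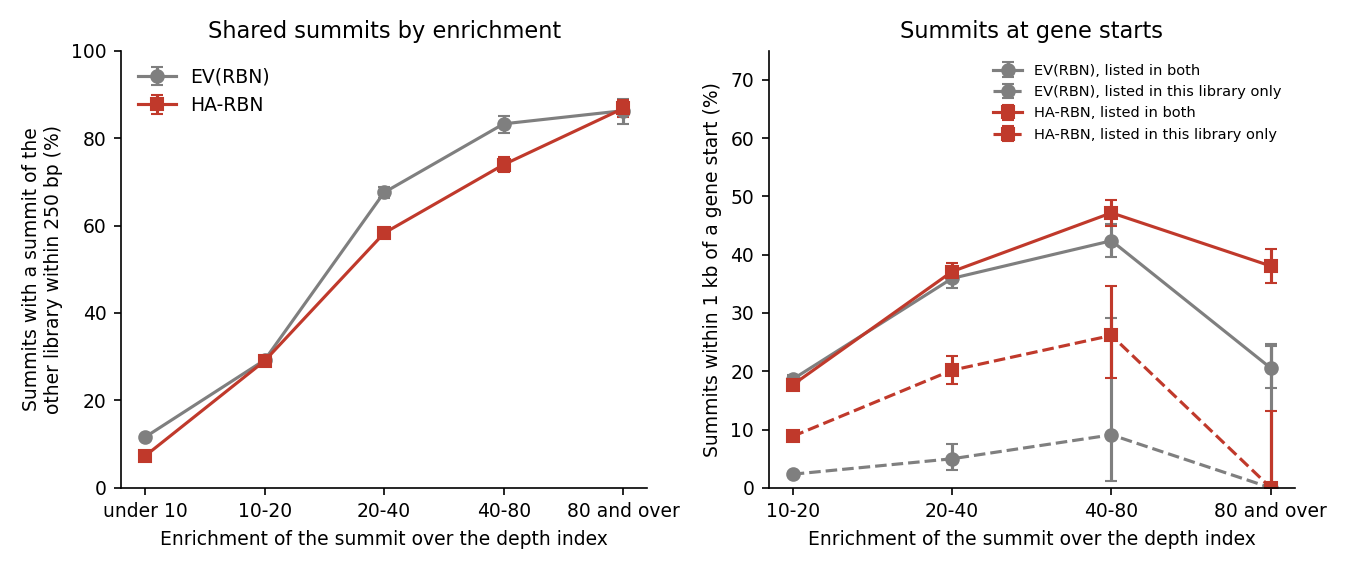
The left panel plots the percentage of summits with a summit of the other library within 250 bp (y axis) against the enrichment of the summit over the depth index (x axis) for EV(RBN) in grey and HA-RBN in red; bars are 95% Clopper-Pearson intervals. Sharing climbed from 11.6% and 7.29% to 86.3% and 86.8%. The right panel plots the percentage of summits within 1 kb of a gene start for summits listed in both libraries (solid) and in 1 library (dashed), and the dashed HA-RBN line runs above the dashed EV(RBN) line up to an enrichment of 80; from there on 0 of 26 HA-RBN and 0 of 13 EV(RBN) summits listed in 1 library lay at a start.

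At 28717 places the summits of the 2 lists were each other's nearest within 250 bp. For these shared summits the log2 ratio of HA-RBN enrichment over EV(RBN) enrichment was taken relative to its median over all of them and is called the relative log2 ratio, so that 0 marks the median shared summit. Its SD over the shared summits was 0.77. A summit was called when its ratio lay more than 1 log2 unit from that median and its exact conditional binomial 95% interval excluded the median. By this rule 1169 shared summits (4.07%) were called higher with HA-RBN and 120 (0.418%) lower.

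That split depended on height. The median relative log2 ratio was -0.32 for the 13953 summits with fewer than 10 fragments in the 2 libraries together, 0.26 from 10 to 20 fragments, 0.54 from 20 to 40, 0.73 from 40 to 80 and 0.79 for the 193 tallest. A summit is compared only where both libraries list it, each with at least 2 fragments, and 2 fragments are an enrichment of 5.46 with EV(RBN) and 3.15 with HA-RBN. When only summits with at least 20 fragments together were kept and centred on their own median, 151 of 6842 were called higher and 344 lower, and with at least 40 fragments 81 of 2627 were higher and 194 lower. The larger number of higher calls therefore held relative to all shared summits and turned relative to tall ones.

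**Figure D2:**
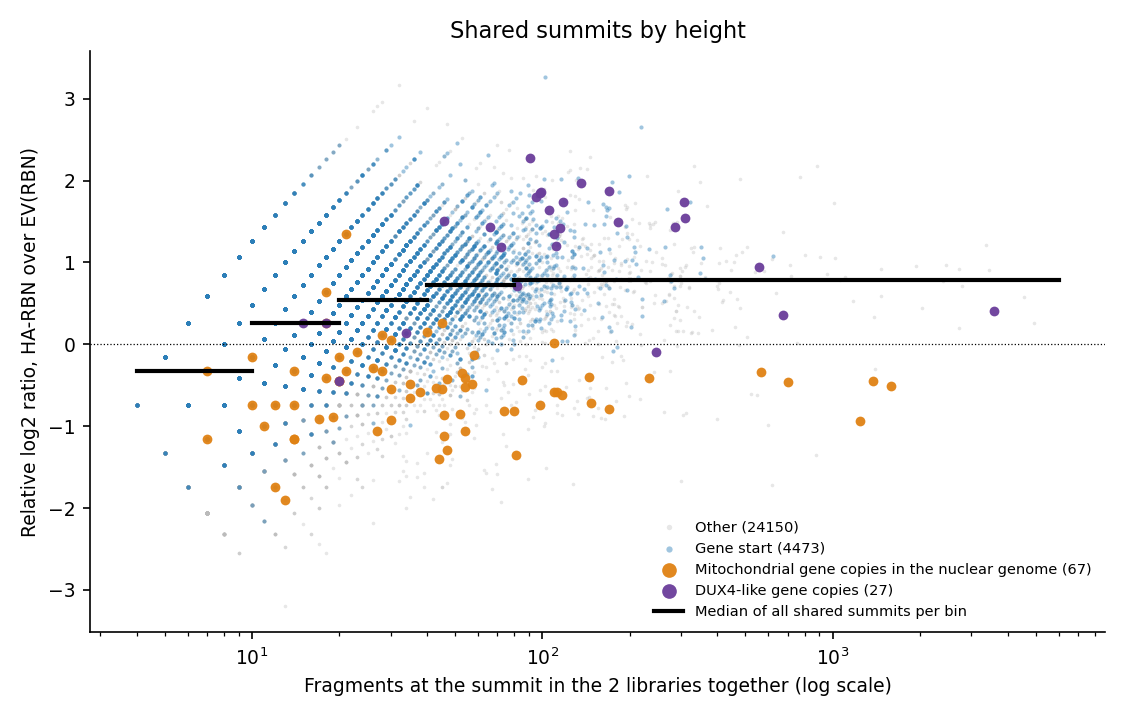
The relative log2 ratio of HA-RBN over EV(RBN) (y axis) is plotted for each shared summit against its fragments in the 2 libraries together (x axis, log scale). Black lines are medians per bin, from -0.32 below 10 fragments to 0.73 between 40 and 80. Blue points are summits at gene starts, orange points mitochondrial gene copies in the nuclear genome, which lie mostly below 0, and purple points DUX4-like gene copies, which lie mostly above the medians.

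Gene starts stood higher than the space between genes. Among shared summits with at least 40 fragments together, the median relative log2 ratio was 0.81 (0.77 to 0.85) at the 1106 within 1 kb of a protein-coding gene start, 0.75 (0.69 to 0.79) at the 502 in gene bodies and 0.63 (0.56 to 0.69) at the 787 between genes. The interval of the starts overlapped that of the gene bodies and lay above that of the intergenic summits. At the starts 384 of these summits were called higher and 0 lower, and between genes 205 were called higher and 31 lower, in both cases against the median of all shared summits.

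A start could be placed for 15812 protein-coding genes, none of them on chromosome 8. A summit lay within 1 kb of the start in 53.3% of them with EV(RBN) and 67.2% with HA-RBN. At 4955 gene starts the tallest summits of the 2 libraries were shared, with a median of 7 fragments with EV(RBN) and 18 with HA-RBN, or an enrichment of 19.1 and 28.4. Their median relative log2 ratio was 0.60, and 83.6% of them lay above 0. Single genes were called against this median of the gene starts, by the same rule of 1 log2 unit and an interval that excludes it. Higher with HA-RBN were 94 gene starts (1.9%), which rest on 76 pairs of summits because neighbouring genes share some, and lower were 37 (0.747%), on 33 pairs. The share called higher rose with height: 0% from 10 to 20 fragments together, 0.555% from 20 to 40, 5.22% from 40 to 80 and 9.38% from 80 on. Measured against the median of all shared summits, the counts were 634 higher and 1 lower, so the number of calls rests on the chosen zero while the order of the genes does not. A further 2815 gene starts (17.8%) were listed with HA-RBN only and 685 (4.33%) with EV(RBN) only. Most of these were small, with medians of 5 and 3 fragments, and 246 and 12 of them had an enrichment of at least 20.

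At EZH2 the shared summit held 6 fragments with EV(RBN) and 96 with HA-RBN, an enrichment of 16.4 against 151 and a relative log2 ratio of 3.26 (95% interval 2.09 to 4.75). The 2 summits were at chr7:148884534 and 148884529, just upstream of the first exon. HMGN2, a nucleosome-binding protein of the HMG family, had 19 and 199 fragments, an enrichment of 51.8 against 314 and a ratio of 2.65 (1.97 to 3.41). These 2 genes had the largest ratios among gene starts with at least 30 fragments together, and both rest on high HA-RBN counts.

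The authors' own fold enrichment is taken over the local background of each peak. At HMGN2 it was 5.17 with EV(RBN) and 9.67 with HA-RBN. At EZH2 it was 3.65 and 14.8. At MCM7 it was 6.21 and 9.26. The direction was thus the same on that measure at all 3, and the difference smaller than in enrichment over the depth index. This did not hold at every summit named below. At chr16:89994637-89996184, called higher with a ratio of 1.22, the authors' fold was 10.7 with EV(RBN) and 9.38 with HA-RBN. At the mitochondrial gene copy MTCO2P12, with a ratio of -0.51, it was 6.82 and 7.44. At another such copy, MTND1P23 (-0.94), it was 6.26 and 5.07, the same direction as the ratio.

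PRIM1 had 3 fragments with EV(RBN) and 29 with HA-RBN, and its ratio of 2.54 had a wide interval, 0.85 to 4.90. MCM3 had 5 and 42 fragments, an enrichment of 13.6 against 66.2 and a ratio of 2.33 (1.00 to 4.03). GMNN had 7 and 58 fragments, an enrichment of 19.1 against 91.5 and a ratio of 2.31 (1.18 to 3.69). All 3 act in the start or control of DNA synthesis, and each EV(RBN) count was below 10, which is why the intervals are wide.

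Outside DNA replication the highest starts included FBXO36 and TRIP12, which share 1 summit (5 and 46 fragments, ratio 2.47). TRIP12 is a ubiquitin ligase. KSR2, a scaffold of the RAS to ERK cascade, had 3 and 27 fragments (2.43), and RAB35, a small GTPase of endosome recycling, 4 and 34 (2.35). PDHX, a part of the pyruvate dehydrogenase complex, shares its summit with APIP and had 5 and 41 fragments (2.30), and LDHA, the lactate dehydrogenase subunit, 4 and 32 (2.26). EZH2, HMGN2, GMNN, KSR2, FBXO36 and PDHX had a summit at the start in each of the other 4 lists of the series as well. RAB35 and MCM3 had one in 3 of those lists, PRIM1 in 2 and LDHA in 1.

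Several further starts were called higher with larger counts, which makes their ratios more precise. MCM7, which shares its summit with AP4M1, had 25 fragments with EV(RBN) and 173 with HA-RBN, an enrichment of 68.2 against 273 and a ratio of 2.05 (1.44 to 2.72). FBXO5, the inhibitor of the anaphase-promoting complex that is also called EMI1, had 23 and 151 fragments (1.98, 1.34 to 2.68). PIM1, a serine/threonine kinase, went from an enrichment of 46.4 to 183 (2.03, 1.29 to 2.86). LIG1 had 20 and 102 fragments, an enrichment of 54.6 against 161 and a ratio of 1.61 (0.91 to 2.38). SLBP, the protein that binds the stem-loop of histone mRNAs, had 27 and 143 (1.67), and the histone gene H4C15 49 and 273 (1.74); reads at histone genes can come from near-identical copies. FBXO5, PIM1, SLBP and H4C15 were picked from the called genes after their values were seen.

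**Figure D3:**
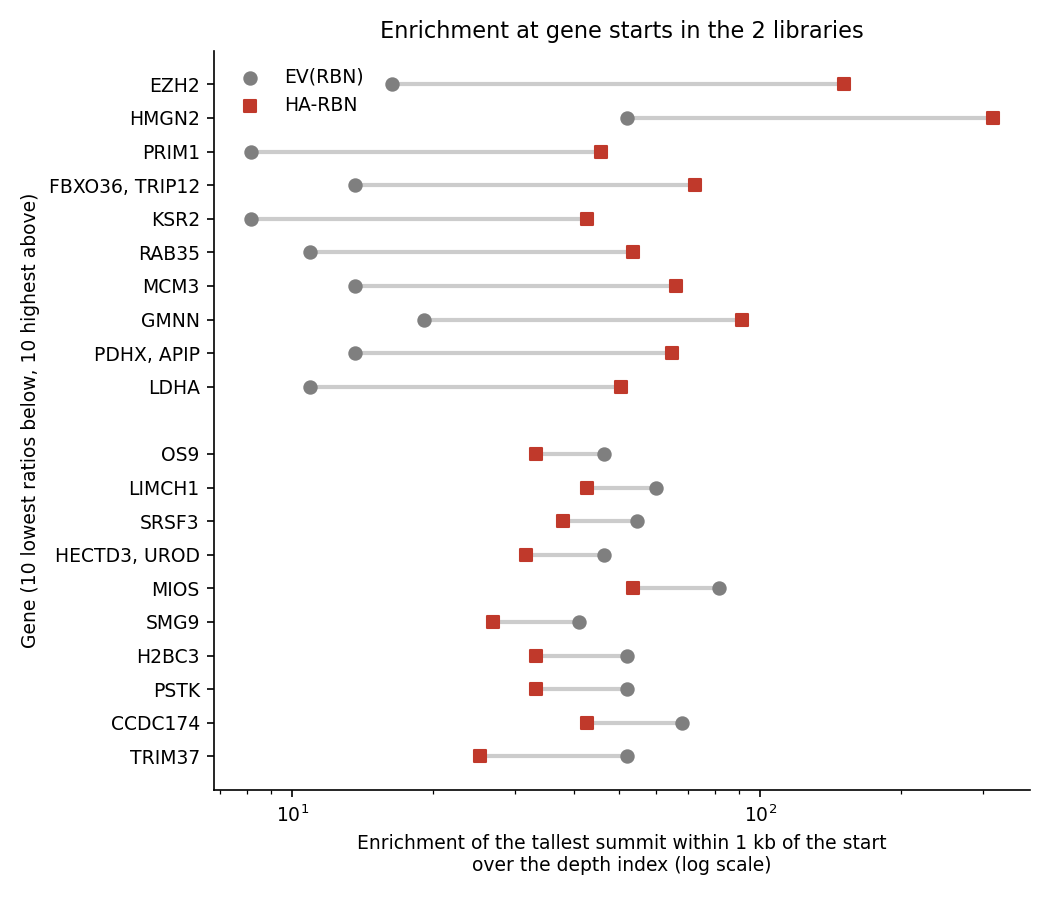
The enrichment of the tallest summit within 1 kb of the gene start over the depth index (x axis, log scale) is plotted for EV(RBN) (grey circles) and HA-RBN (red squares) at the 10 gene starts with the highest and the 10 with the lowest ratios among those called with at least 30 fragments in the 2 libraries together. EZH2 spans 16.4 to 151 and HMGN2 51.8 to 314, and at the lower 10 the HA-RBN value lies below the EV(RBN) value.

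At the lowest starts the EV(RBN) library held nearly as many fragments as the deeper HA-RBN library, or more. TRIM37 had 19 with EV(RBN) and 16 with HA-RBN, an enrichment of 51.8 against 25.2 and a ratio of -0.98 (-2.04 to 0.05). CCDC174 had 25 and 27 fragments, an enrichment of 68.2 against 42.6 and a ratio of -0.63 (-1.47 to 0.22). MIOS, a subunit of the GATOR2 complex that signals amino acids to mTORC1, had 30 and 34 fragments, an enrichment of 81.8 against 53.6 and a ratio of -0.56 (-1.31 to 0.20). The intervals of these 3 genes lay below the gene-start median of 0.60 and included the median of all shared summits, 0.

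The others named at this end had 15 to 22 fragments with EV(RBN) and 17 to 27 with HA-RBN. They were PSTK (an enzyme of selenocysteine synthesis), H2BC3 (a histone gene), SMG9 (a factor of nonsense-mediated decay), HECTD3 with UROD (a haem synthesis enzyme that shares the summit), SRSF3 (a splicing factor), LIMCH1 and OS9 (a lectin of endoplasmic reticulum quality control). Their ratios ran from -0.59 at PSTK and H2BC3 to -0.43 at OS9.

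Among starts listed with HA-RBN only, RNPS1, a component of the exon junction complex, had the most fragments, 45, an enrichment of 71.0. MSH3, a mismatch repair protein, had 43 and POLE, the catalytic subunit of DNA polymerase epsilon, 35. CIMAP1A and TYMP had 34 each, INCA1 and NUMBL 33, HSPA6 and RPL18 32 and GIT2 31. At MSH3 and POLE the authors' fold over local background was 2.72 and 2.41, while at GIT2 it was 9.42 and at INCA1 8.23. RNPS1 had a summit at its start in all 4 other lists, INCA1 and GIT2 in 3 and POLE in 0.

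The starts listed with EV(RBN) only were much lower. PRKCD, a protein kinase C isoform, led with 16 fragments, an enrichment of 43.7, followed by PIAS4 (a SUMO ligase) with 12, INO80B and MYADM with 11, CYTH1, ZBTB45 and ZNF580 with 9, and FBRSL1, LSMEM2 and SAMD11 with 8. PRKCD had a summit in 0 of the 4 other lists, and the other 9 in at most 1.

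Of the genes in the series title and RB1, TRIM24 had the tallest summit in both libraries. DUSP2, at chr2:96143169-96145440 on the minus strand, had an HA-RBN summit of 18 fragments at its start (chr2:96145479, enrichment 28.4), where EV(RBN) listed none, and an EV(RBN) summit of 7 fragments at its far end (chr2:96143049, enrichment 19.1), where HA-RBN listed none. At MTOR, at chr1:11106535-11262551 on the minus strand, the start held 5 fragments with EV(RBN) and 11 with HA-RBN, an enrichment of 13.6 against 17.4, at summits 683 bp apart. TRIM24, at chr7:138460259-138589996, has no listed strand in the table used here, and its lower end held 10 fragments with EV(RBN) and 28 with HA-RBN, an enrichment of 27.3 against 44.2, at summits 1 bp apart. RB1, at chr13:48303751-48481890 on the plus strand, had 6 fragments at its start with HA-RBN (enrichment 9.46) and no summit within 1 kb of it with EV(RBN). Inside RB1 lay 5 small summits with EV(RBN) and 8 with HA-RBN, of at most 4 and 9 fragments. Peaks cannot show how much RBN protein the transfected cells made, so the overexpression itself was not checked.

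Of the DNA replication list, 37 of 44 genes with a placed start had a summit there with EV(RBN) and 41 with HA-RBN. At the 24 shared starts the median relative log2 ratio was 0.69, beside 0.60 over all gene starts. 5 were called higher (PRIM1, MCM3, GMNN, MCM7 and LIG1; all gene starts, 1.9%) and 0 lower. With at least 20 fragments together the list median was 0.98, beside 0.74 over all gene starts, and 9 of 17 starts lay above the latter. The list was not uniform. CDC45, a helicase cofactor, had 43 fragments with EV(RBN) and 74 with HA-RBN, and its enrichment of 117 was the same in both libraries (ratio 0.05, -0.52 to 0.62). ORC6, an origin recognition subunit, had 24 and 44 (0.14), and POLE2, the second subunit of polymerase epsilon, 5 and 6 (-0.47). PCNA, the sliding clamp, had 12 and 45 fragments (1.17) and was not called.

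The 14 shared starts of the mitosis list had a median of 0.48, with 5 above the gene-start median and 9 below, and 0 were called in either direction. KIF20A, a mitotic kinesin, had 17 and 31 fragments (0.13), MAD2L1, a spindle checkpoint protein, 7 and 28 (1.26) and CCNB1, cyclin B1, 9 and 9 (-0.74, -2.25 to 0.77). PRC1, which bundles the central spindle, had 2 and 17 (2.35), and its interval of 0.28 to 5.51 included the median of gene starts.

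Of the RB and G1 control list, 17 of 25 genes had a summit at the start with EV(RBN) and 23 with HA-RBN. Its 10 shared starts had a median of 0.82, and 9 of the 10 lay above the gene-start median, with none called. With at least 20 fragments together, where the median of all gene starts was 0.74, 4 of its 8 starts lay above. CDK4, the G1 kinase that phosphorylates RB, had 28 and 71 fragments (0.61). The CDK inhibitor genes CDKN2C, with 22 and 61 (0.73), and CDKN1B, with 7 and 29 (1.31), and TFDP1, the DNA-binding partner of E2F factors, with 7 and 32 (1.46), lay higher. E2F3, an activating E2F, had 16 and 44 (0.72). E2F2, another activating E2F, had 16 and 95 fragments at summits more than 250 bp apart, an enrichment of 43.7 against 150, and so received no ratio.

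The Polycomb list had the highest median, 1.09 over 8 shared starts, with 7 of them above the gene-start median and EZH2 the 1 called. JARID2, a cofactor of the complex, had 16 fragments with EV(RBN) and 70 with HA-RBN, a ratio of 1.39 whose interval began at 0.59, just below the gene-start median. EZH1, the paralogue of EZH2, had 3 and 21 (2.07, 0.33 to 4.46), EED 6 and 23 (1.20) and SUZ12 4 and 13 (0.96). RBBP4, a histone-binding subunit, had 24 and 55 and was the lowest at 0.46. The promoter windows of this list were the richest in G and C bases of the lists examined, with a median of 71.7%, and the ratio moved with that measure, as described further below.

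**Figure D4:**
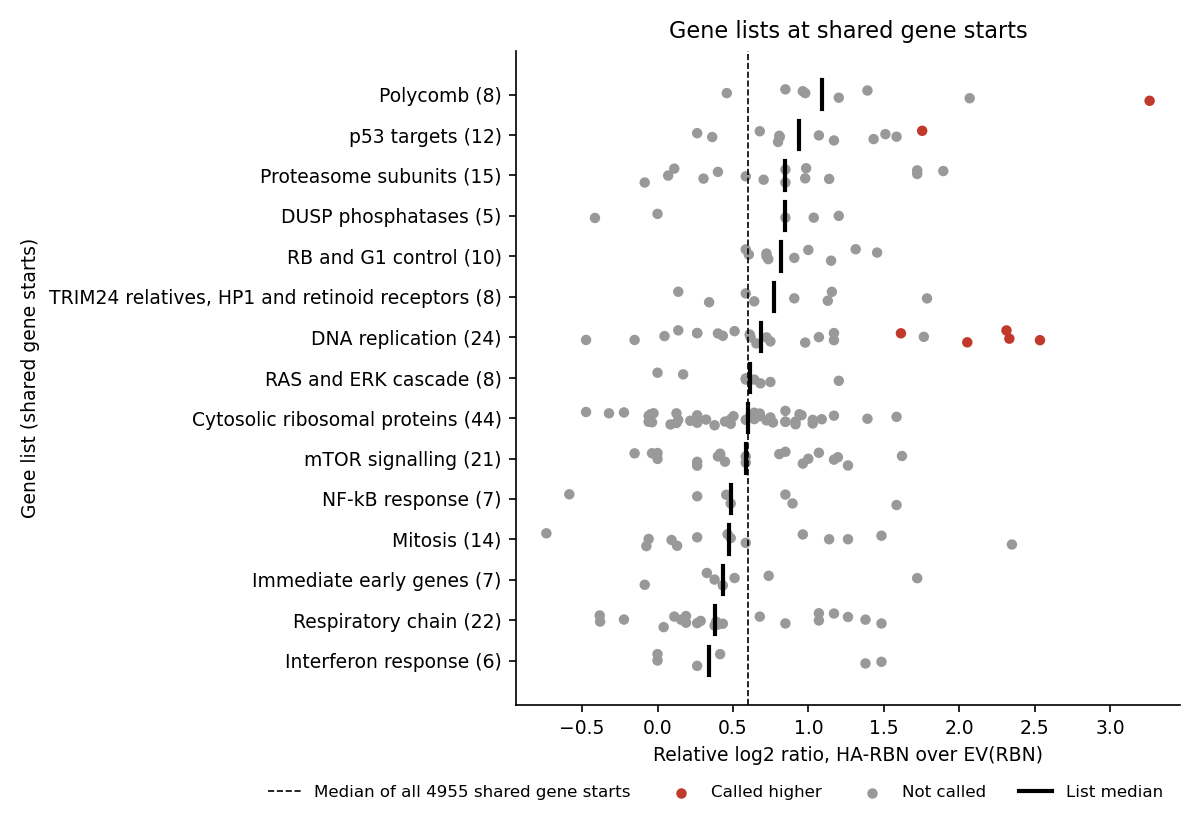
The relative log2 ratio of HA-RBN over EV(RBN) (x axis) is plotted for each shared gene start of the 15 gene lists with at least 5 of them; black bars are list medians, the dashed line is the median of all 4955 shared gene starts and red points were called higher. 5 red points belong to DNA replication, 1 to Polycomb (EZH2) and 1 to p53 targets (DDB2).

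Among TRIM24 relatives, HP1 proteins and retinoid receptors, 8 shared starts had a median of 0.77 and none was called. The HP1 genes were among the taller members: CBX5 had 71 fragments with EV(RBN) and 150 with HA-RBN (0.34) and CBX3 45 and 164 (1.13, 0.65 to 1.64). The mTOR list followed the gene starts as a whole, with 21 shared starts, a median of 0.59 and 0 called. RHEB, the GTPase that activates mTORC1, had 11 and 42 fragments (1.20), and NPRL2, a GATOR1 subunit that restrains mTORC1, 8 and 41 (1.62, 0.51 to 2.93).

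Among the DUSP phosphatases, 14 of 18 genes had a summit at the start with EV(RBN) and 15 with HA-RBN, and 5 starts were shared. DUSP7 had 12 and 46 fragments (1.20) and DUSP6, which is specific for ERK, 12 and 41 (1.04), while DUSP23 had 15 and 25 (0.00) and DUSP19 4 and 5 (-0.42). None was called. The RAS and ERK cascade (median 0.61 over 8 shared starts) and the immediate early genes (0.43 over 7) held no called member either. SHC1, the adaptor upstream of RAS, was the tallest of them with 43 and 115 fragments.

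Of 19 p53 targets, 14 had a summit at the start with EV(RBN) and 16 with HA-RBN. Their 12 shared starts had a median of 0.94, with 10 above the gene-start median. DDB2, a nucleotide excision repair protein, had 8 fragments with EV(RBN) and 45 with HA-RBN and was called higher (1.76, 0.65 to 3.05). PLK3, a stress kinase, had 18 and 81 fragments, and at 1.43 (0.68 to 2.26) it stayed under the limit of 1 log2 unit above the gene-start median. XPC, the damage sensor of the same repair pathway, had 4 and 20 (1.59) and MDM2, the ubiquitin ligase of p53, 13 and 38 (0.81).

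In the interferon list, 8 of 22 genes had a summit at the start with EV(RBN) and 16 with HA-RBN, against 53.3% and 67.2% of all gene starts. Of the 22, 9 were listed with HA-RBN only, against 17.8% of all gene starts. Its 6 shared starts had the lowest median of the lists with at least 5, 0.34. ISG15, a ubiquitin-like protein, had 6 and 26 fragments and TAP1 with PSMB9, which share a summit, 6 and 10. The NF-kB list had a median of 0.49 over 7 shared starts, below that of all gene starts, and 0.85 over the 5 with at least 20 fragments together, above it; none was called.

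The 44 shared starts of cytosolic ribosomal protein genes had a median of 0.60, equal to that of all gene starts, with 22 on either side of it and none called; with at least 20 fragments together 12 of 33 lay above. RPS19 had 35 fragments with EV(RBN) and 90 with HA-RBN. The 15 proteasome subunit starts had a median of 0.85 and the 22 of the respiratory chain 0.38, with 14 of the 22 below the gene-start median. Within the latter UQCRC2 had 25 and 32 fragments (-0.38), NDUFA2 18 and 23 (-0.38) and COX5A 9 and 39 (1.38). No list had a member called lower.

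Of the androgen receptor and prostate lineage list, 8 of 16 genes had a summit at the start with EV(RBN) and 11 with HA-RBN. FOXA1, the pioneer factor of luminal prostate cells, had 9 fragments with EV(RBN) and 17 with HA-RBN at summits too far apart to be paired. Genes typical of other organs had a summit in 4 of 26 cases with EV(RBN) and in 6 with HA-RBN, against 53.3% and 67.2% of all gene starts.

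Promoter windows from 250 bases before to 50 after the start numbered 14460, with a window shared by several genes counted once. The HA-RBN summit lay inside the window at 29 of 89 starts called higher (32.6%) and 15 of 35 called lower (42.9%). Among 4710 shared starts it did so at 41.0%. Letters and base composition of a window thus describe the promoter, and often not the bases under the summit. The E2F letters spelled out above occurred in 15 of the 89 windows of gene starts called higher that had a sequence (16.9%, 9.75 to 26.3), in 2 of 35 called lower (5.71%), in 6.69% of 4710 shared starts and in 4.60% of all windows. At shared starts with at least 30 fragments together they occurred in 8.76%, so taller starts held them more often in general. Among those taller starts, 15 of 168 with a match (8.93%) and 72 of 1749 without (4.12%) were called higher, and the median ratios were 0.81 and 0.77. The E2F letters were 1 of 11 sets searched, on both strands. The CCAAT-box letters ATTGGCT and ATTGGTT were found in 22.5% of the windows called higher and 15.4% of the shared ones. The cell cycle homology letters TTTGAA and TTCGAA, known from mitotic promoters, were found in 8.99% and 10.5%. A match is a run of letters and not a measured binding site.

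The share of G and C bases in the window moved with the ratio. At shared starts with at least 30 fragments together, the median relative log2 ratio was 0.43 in the 69 windows under 50% G and C, 0.65 from 55% to 60%, 0.85 from 65% to 70% and 1.00 in the 156 windows of 75% or more. The share called higher went from 1.45% in the first of these bins to 8.97% in the last. Median G and C was 68% in windows called higher, 61% in windows called lower and 65% in shared windows. Single starts did not all follow this: over the 300-base window G and C made up 74.7% at EZH2, 57.3% at MCM3 and 60% at GMNN, all called higher, and 69.7% at TRIM37 and 52.7% at CCDC174, both called lower. The part of base composition in the calls and in the list medians was not tested.

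**Figure D5:**
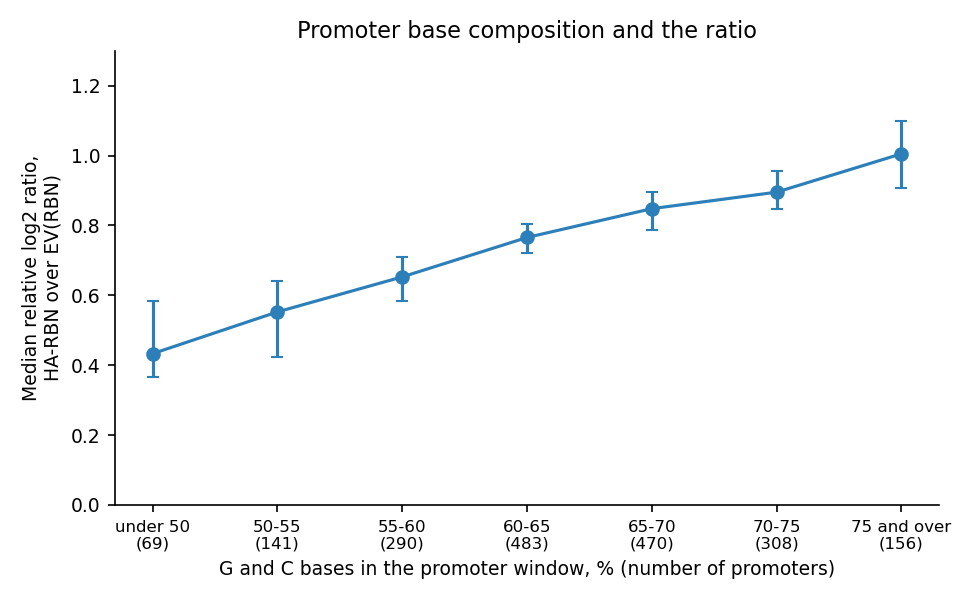
The median relative log2 ratio of HA-RBN over EV(RBN) (y axis) is plotted against the share of G and C bases in the promoter window (x axis, number of promoters in brackets) for shared gene starts with at least 30 fragments in the 2 libraries together; bars are 95% order-statistic intervals of the median over promoters, which are not replicates. The median went from 0.43 to 1.00.

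Some groups of repeated genes differed between the libraries. The groups in this and the next paragraph were chosen after their values were seen, and reads from near-identical copies cannot be assigned to 1 of them with certainty; how the authors placed such reads is not given in the sources used here. Of 479 annotated mitochondrial gene copies in the nuclear genome, 67 shared summits had a median relative log2 ratio of -0.54 (-0.72 to -0.45), with 0 called higher and 6 (8.96%) lower, beside 4.07% and 0.418% of all shared summits. Of the 34 with at least 40 fragments together, 31 lay below 0. MTND1P23 had 662 fragments with EV(RBN) and 576 with HA-RBN (-0.94, -1.10 to -0.77), and MTCO2P12 731 and 855 (-0.51). The mitochondrial genome itself, outside the chromosomes compared, moved alike: its lowest background per depth index was 5206 with EV(RBN) and 3329 with HA-RBN, a relative log2 ratio of -0.59.

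DUX4-like copies, many of which belong to repeat arrays near the ends of chromosomes 4 and 10, lay on the other side. Their 27 shared summits had a median of 1.43 (0.71 to 1.74), and 18 (66.7%) were called higher, beside 4.07% of all shared summits. Most of them were tall: 23 had at least 40 fragments together, with a median of 1.49. Higher calls were common at that height in general, with 384 of 1106 summits at gene starts, 139 of 502 in gene bodies and 205 of 787 between genes. DUX4L4 had 24 fragments with EV(RBN) and 146 with HA-RBN (1.87, 1.24 to 2.56), DUX4L9 52 and 235 (1.44) and DUX4L25 53 and 257 (1.54). The tallest of them, at DUX4, had 1124 and 2480 and lay at 0.40, so the ratio was not uniform across the copies. Transfer RNA genes had 19 of 114 shared summits called higher (16.7%), histone genes 5 of 25 (20%) and ribosomal RNA genes 5 of 24 (20.8%), with none called lower in these 3 groups. Many of these were tall too: 57, 17 and 23 of them had at least 40 fragments together. The medians of those were 0.67, 0.66 and 0.60, beside 0.81 at gene starts and 0.63 between genes at that height. These 3 groups therefore did not stand above other tall summits.

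Summits called lower were concentrated far from genes. Of the 120, 96 lay between genes, and 79 (65.8%) were more than 100 kb from any protein-coding gene, against 65 (5.56%) of the summits called higher and 15.2% of all shared summits. The tallest was at chr3:93470362-93470799, beside the centromere, with 530 fragments with EV(RBN) and 345 with HA-RBN, an enrichment of 1446 against 544 and a ratio of -1.36 (-1.56 to -1.16). A peak at chr4:49709274-49711871, also beside a centromere, had 411 and 209 (-1.71), and one at chr1:125178895-125180714 had 197 and 103 (-1.67). 6 stretches of 1 Mb held 3 or more such summits and 33 in all, with 9 between chr1:143185171 and 143262745. At these places the shallower library held the larger raw number of fragments.

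Away from gene starts, the tallest summits called higher were at chr16:89994637-89996184, with 691 fragments with EV(RBN) and 2673 with HA-RBN (1.22, 1.09 to 1.34), chr1:10004-10468, with 228 and 788 (1.05), and chr15:99926412-99928498, with 155 and 852 (1.72). A lower one with a larger ratio, at chr12:111325259-111326387, had 103 and 778 (2.18). Of the 20 tallest shared summits, 10 lay within 100 kb of a chromosome end. One of the tallest of all, at chr1:236097103-236097409 and 32172 bp from the nearest gene, held 1304 and 3237 fragments and lay at 0.57, close to the gene starts.

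Summits listed in 1 library differed in where they lay. Among those with an enrichment of at least 20 that were listed in 1 library only, 263 of 1291 with HA-RBN (20.4%, 18.2 to 22.7) lay within 1 kb of a gene start, against 22 of 436 with EV(RBN) (5.05%, 3.19 to 7.54). Such regions make up 0.972% of the chromosomes. The 2 intervals did not overlap. At an enrichment of 80 and over, none of the 26 HA-RBN summits or the 13 EV(RBN) summits lay at a start, which allows up to 13.2% and 24.7%. An enrichment of 20 needs 13 fragments with HA-RBN and 8 with EV(RBN), so the same was also counted at equal fragments, a choice made after the data were seen. With at least 13 fragments the shares were 20.4% of 1291 and 4% of 50 (0.49 to 13.7), and with at least 20 fragments 23.1% of 312 (18.5 to 28.2) and 0 of 21, which allows up to 16.1%.

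The other 4 lists, which played no part in choosing these summits, held more of the HA-RBN summits. A summit of at least 1 other list lay within 250 bp of 40.1% (37.4 to 42.9) of the summits listed with HA-RBN only and of 17.9% (14.4 to 21.8) of those listed with EV(RBN) only, both at an enrichment of at least 20. At equal fragments, at least 13, the shares were 40.1% and 34.0%, and the latter interval of 21.2 to 48.8 included the former value. Shares at gene starts therefore differed with and without this matching, and shares found elsewhere in the series did so only without it.

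The 94 gene starts called higher were bound in the other libraries too. A summit was listed at 84.0% of them in EV(245-255) and in HA-RB(245-255), at 83.0% in control siRNA and at 80.9% in RB1 siRNA. For all shared gene starts with at least 30 fragments together the shares were 79.0%, 82.1%, 67.8% and 71.1%. Of the 37 called lower, 75.7%, 83.8%, 54.1% and 51.4% were listed. Of the 246 starts with an enrichment of at least 20 that were listed with HA-RBN only, 51.6%, 48.0%, 24.8% and 35.8% had a summit in these 4 lists, in the same order. Over all gene starts the shares were 43.3%, 43.2%, 28.1% and 33.4%. In EV(245-255) the interval of the share of the 246, 45.2 to 58.0, lay above the share of all gene starts. In HA-RB(245-255) (41.6 to 54.4), control siRNA (19.5 to 30.7) and RB1 siRNA (29.8 to 42.1) the interval included it.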

How the data were processed

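Chromatin of 22RV1 cells was fixed with formaldehyde, sonicated, immunoprecipitated and sequenced, and per the submitters' processing notes Trimmomatic 0.33, Bowtie 1.1.2, MACS2 2.1.0 and the hg38 build were used. For each peak the deposited lists give the authors' fold enrichment over the local background, the −log10 of a p-value and of a q-value, and the position of the summit. Whether MACS2 was given a control library, and how reads with several equal placements were treated, is not given in the sources used here. Peaks were called per library.

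From fold and p together, the whole number of fragments at the summit and its local background were solved for, on the reading that the fold is fragments plus 1 over background plus 1 and that p is a Poisson tail. All peaks of both lists gave a whole number, with a relative error of p of at most 1.25e-05; 455 EV(RBN) and 981 HA-RBN peaks had more than 1 solution and the best was kept. The recovery and the interval of the ratio were tested on simulated data. Gene positions, strands and promoter sequences are those of RefSeq GRCh38.p14. Of 19970 protein-coding genes, 15812 had a strand and so a start. Those without one include all genes of chromosome 8, which is therefore absent from every count, list and call of gene starts. A gene start takes the tallest summit within 1 kb.

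Named genes were TRIM24, RB1, DUSP2 and MTOR, the 10 gene starts with the highest and the 10 with the lowest ratio among those whose interval excludes the median with at least 30 fragments together, the 10 with the most fragments among those listed in 1 library only, and a selection from 18 gene lists of those with the most fragments or the most extreme ratios. The comparison, the members and the lists were chosen with earlier results of these data known. Calls at gene starts were centred on the median of gene starts, the repeat groups and the fragment-matched classes were added after the data were seen. Python 3.11.15, numpy 2.4.6, pandas 2.3.3, scipy 1.17.1 and matplotlib 3.10.9 were used.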

Additional observations from a re-analysis of the deposited data

How the results depend on the processing

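No paired analysis was possible because each group has 1 library. Shares moved with the definition of sharing. A reciprocal overlap of 50% left 15.7% of EV(RBN) and 10.2% of HA-RBN peaks overlapping, peaks with a −log10 q of at least 5 gave 91.5% and 26.5%, and lists cut to the same length 27.0% and 26.3%. Summits were shared in 9.18% and 5.92% within 100 bp, in 28.6% and 18.4% within 500 bp, in 80.7% and 23.3% at a −log10 q of at least 5, in 15.4% and 15.4% with lists of the same length, and in 14.1% and 20.6% above the same enrichment.

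Shared summits called higher were 741 within 100 bp, 151 with at least 20 and 81 with at least 40 fragments together; called lower were 344 and 194 in these last cases. Without the depth correction and without centring, 4873 were higher and 9 lower. Gene starts called against the median of all shared summits were 634 higher and 1 lower.

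With starts narrowed to 500 bp, summits at gene starts made up 16.8% of those with HA-RBN only and 36.2% of those shared in HA-RBN. With starts widened to 2 kb, 11.7% with EV(RBN) only, 26.1% with HA-RBN only and 43.4% of those shared in HA-RBN lay there. Gene starts in 1 library only fell to 222 with HA-RBN and 2 with EV(RBN) at a −log10 q of at least 5. The medians of the gene lists stayed within their main intervals. At 2 kb 13 of 15 lists, and with at least 20 fragments together 12 of 14, kept their side of the median of all gene starts. Of 23 named genes, 15 still had a shared summit under a 100 bp window and 8 had none, and under a 500 bp window all 23 had one. The ratio of a gene start comes from its tallest summits within 1 kb. Another pairing window can therefore only leave that ratio unchanged or remove it, and does not test its size. Depth limits the EV(RBN) side most: the least its list holds is 2 fragments, an enrichment of 5.46, so a start absent from it may have been bound below that, or higher where the local background was high.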

Other observations

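The excess of HA-RBN peaks was uneven over the chromosomes. The ratio of peak numbers, HA-RBN over EV(RBN), was lowest on chromosome 19, at 1.31, and on chromosome 7, at 1.32, and highest on chromosome X, at 2.15. Beside 4.07% of all shared summits, small nuclear RNA genes had 3 of 48 shared summits (6.25%) called higher, with a median relative log2 ratio of 0.26. C2H2 zinc finger genes had 37 of 429 (8.63%), with the same median of 0.26. With at least 40 fragments together, the 38 small nuclear RNA summits stood at 0.30 and the 79 zinc finger summits at 0.85. All shared summits stood at 0.73 from 40 to 80 fragments and at 0.79 for the 193 tallest, so small nuclear RNA genes lay below other tall summits.

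The tallest distal summit listed with EV(RBN) only, at chr21:8233904-8234911, held 103 fragments on a local background of 35.6, and the tallest listed with HA-RBN only, at chr21:8441242-8441618, held 170 on a background of 98.4. At chr4:10001-10352, at the very end of the assembled chromosome, HA-RBN listed 161 fragments over a background of 7.25, and at chr17:83247139-83247421, also at a chromosome end, EV(RBN) listed 61 fragments over a background of 2.05.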
